A study of Mus musculus with 48 samples.

Results

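Ch25h, which encodes cholesterol 25-hydroxylase, and 6 genes of cholesterol synthesis, sterol sensing and sterol export (Hmgcs1, Sqle, Idi1, Insig1, Abca1 and Abcg1) were described across A/J and C57BL/6J (B6) mouse lungs after welding fume. The 7 genes were found by their symbols, which 10 of the 24613 probes of the array carried, and 6 of the 7 had a signal that could be tested, among 8687 genes tested at 4 weeks and 8710 at 16 weeks. The 7 genes were chosen by their fume against sham values on these same arrays. Those differences are therefore described with no p-value, and tests are given only for other comparisons and for other genes of the pathway.

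The mice were male and 4 weeks of age at purchase. They received 4 exposures by pharyngeal aspiration, which places a suspension at the back of the throat to be drawn into the lung. GMA-MS groups received gas metal arc-mild steel fume, which is rich in iron. GMA-SS groups received gas metal arc-stainless steel fume, which also carries chromium and nickel, and either fume was given at 5 mg/kg per exposure in PBS free of calcium and magnesium. Sham groups received the PBS alone. Lungs of A/J, a strain prone to lung tumors, and of B6, a resistant strain, were taken 4 or 16 weeks after the last exposure, which made 12 groups of 4 arrays. Total RNA of whole lung was measured, so that fewer cells of a type and less RNA per cell cannot be told apart. An array numbered 1 to 4 in its group was on the beadchip of that number, beside 1 array of each other group of its time point. By the labels each group had the same array position on every beadchip (A to C for B6, E to G for A/J). Array position therefore cannot be told apart from strain or exposure, also with beadchip as a block. The time points were on different beadchips, so time and beadchip cannot be told apart in a level.

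25-Hydroxycholesterol, the product of Ch25h, is an oxysterol made by macrophages and other cells during inflammation. It binds INSIG proteins in the endoplasmic reticulum, which holds back the SREBP transcription factors that switch on the genes of sterol synthesis. Oxysterols also bind the nuclear receptor LXR, which raises transcription of the sterol exporters Abca1 and Abcg1. In the lung, alveolar macrophages take up surfactant lipid and export cholesterol.

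The promoters of Ch25h and Hmgcs1 are shown because these genes had the largest fume against sham differences of the 7, in opposite directions. Each sequence is the 250 bases before the transcription start in RefSeq (GRCm38.p6), written 5′ to 3′ on the strand of the gene. RefSeq promoter entries were matched for 5 of the 7 genes, all but Sqle and Abcg1. In the Ch25h promoter, at chr19:34475149-34475398 on the minus strand, the capitals mark a cAMP response element, TGACGTCA, at positions -61 to -54 from the start. In the Hmgcs1 promoter, at chr13:119690101-119690350 on the plus strand, the capitals mark a sterol regulatory element in the form TCACNCCAC at positions -137 to -129.
Ch25h: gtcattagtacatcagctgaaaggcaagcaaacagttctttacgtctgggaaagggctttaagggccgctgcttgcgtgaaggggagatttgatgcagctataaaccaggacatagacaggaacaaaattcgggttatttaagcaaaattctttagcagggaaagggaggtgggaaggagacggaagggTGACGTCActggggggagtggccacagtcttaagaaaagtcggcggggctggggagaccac
Hmgcs1: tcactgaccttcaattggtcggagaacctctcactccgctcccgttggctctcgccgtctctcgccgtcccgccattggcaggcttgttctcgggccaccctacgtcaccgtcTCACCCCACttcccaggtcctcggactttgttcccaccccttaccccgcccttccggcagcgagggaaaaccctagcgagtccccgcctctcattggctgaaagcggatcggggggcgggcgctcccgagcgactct

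Searched on both strands, TCACNCCAC was in 1.05% and TGACGTCA in 1.55% of 32851 RefSeq mouse promoters of the same length. Neither was in the windows of Insig1, Idi1 or Abca1. The CCAAT box was in 33.8% of the promoters, with 3 sites in the window of Hmgcs1, 2 in that of Idi1, 1 in that of Insig1 and 0 in those of Ch25h and Abca1. The CCAAT search does not overlap the other motifs in letters, and a match describes the letters in the window only.

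The arrays detected 9990 to 11421 probes at 4 weeks and 10594 to 11567 at 16 weeks (detection p under 0.01), with a median of 34 to 36 beads per probe. The lung was recognizable in every group, since all 8 alveolar and airway epithelium markers were measured and none was called against sham. A call is a Benjamini-Hochberg adjusted p under 0.05 in the limma fit across all genes. The 7 measured genes of squamous epithelium varied widely within groups, with a list mean of 7.53 to 11.2 (log2) in the B6 sham arrays at 4 weeks and 10.5 to 11.1 in the A/J GMA-SS arrays. Only 2 stomach genes were measured, and their mean reached 13.2 on 1 A/J sham array at 16 weeks, against 9.49 on the lowest array of that group. Of 8 measured immediate early genes, 3 (GMA-MS) and 2 (GMA-SS) were called lower than sham in B6 at 4 weeks, where Egr1 fell by 1.68 with GMA-MS and by 1.57 with GMA-SS on the log2 scale. The part of these signals in the values below was not tested.

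Ch25h had a higher mean in all 8 fume groups than in their sham groups, by 1.22-fold to 2.03-fold. Its probe was detected on all 48 arrays, with an intensity of 397 to 2052 and a median of 784, and normalized log2 levels are given in the order of beadchips 1 to 4. At 4 weeks the A/J sham lungs measured 9.06, 9.53, 8.58 and 9.24. The A/J lungs given GMA-MS measured 10.00, 10.80, 9.87 and 9.84, and those given GMA-SS measured 10.06, 10.06, 9.88 and 9.72. All 8 A/J fume arrays were thus above all 4 sham arrays. In B6 the sham lungs measured 8.83, 9.26, 8.98 and 8.92. The B6 lungs given GMA-MS measured 9.35, 10.17, 9.75 and 9.34, and those given GMA-SS measured 9.69, 9.52, 9.14 and 9.45. The GMA-MS arrays of B6 did not overlap sham, while the lowest GMA-SS array was below the highest sham array. The means ± SD (n = 4) at 4 weeks were 9.10 ± 0.40 in A/J sham and 10.13 ± 0.45 in A/J GMA-MS.

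**Figure D1:**
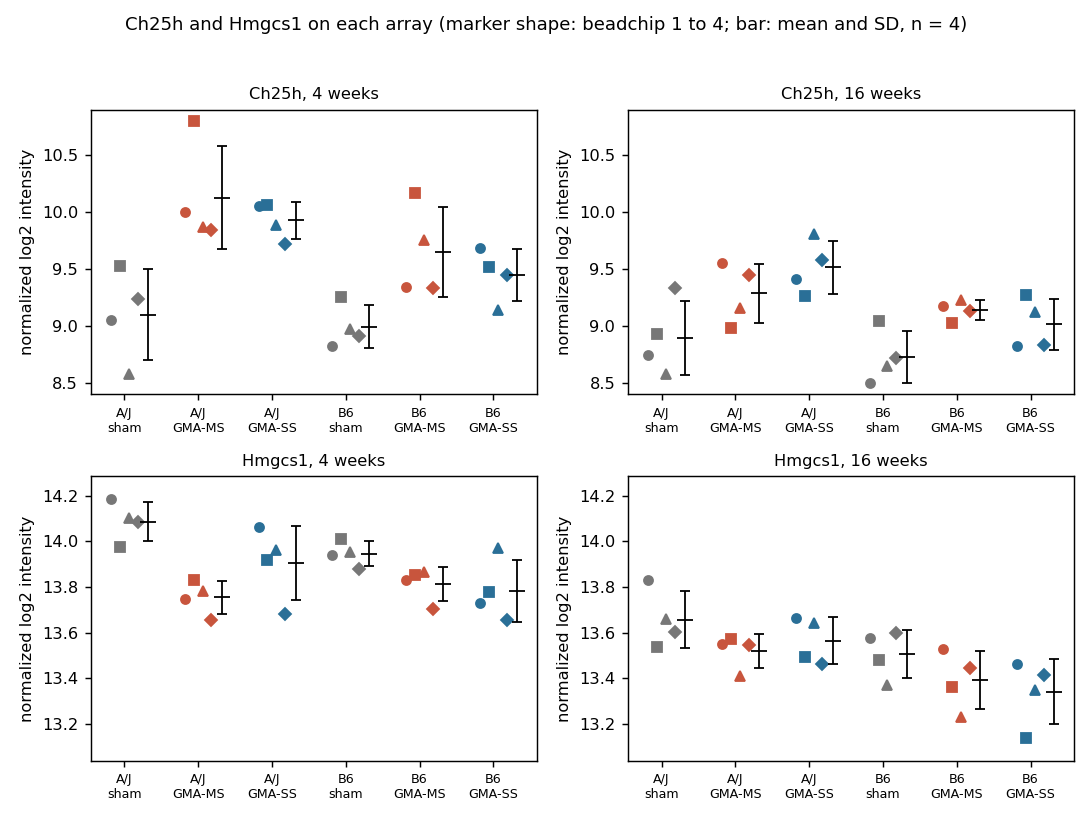
Normalized log2 intensity of Ch25h (upper panels) and Hmgcs1 (lower panels) on each array, by strain and exposure, at 4 weeks (left) and 16 weeks (right). Marker shapes are beadchips 1 to 4 of the time point and bars are the mean and SD of 4 arrays; at 4 weeks the 8 A/J fume arrays of Ch25h lie at 9.72 or above and the 4 sham arrays at 9.53 or below.

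At 16 weeks the Ch25h levels of A/J sham lungs were 8.75, 8.93, 8.58 and 9.34. Levels after GMA-MS were 9.56, 8.99, 9.16 and 9.45, and after GMA-SS they were 9.42, 9.27, 9.81 and 9.58. Both fume groups of A/J overlapped sham, because the sham array of beadchip 4 was high. In B6 the 16-week sham levels were 8.51, 9.05, 8.65 and 8.72. The GMA-MS levels were 9.18, 9.03, 9.24 and 9.13, and the GMA-SS levels were 8.83, 9.28, 9.12 and 8.84. Here too the groups overlapped, at the sham array of beadchip 2.

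As log2 fold changes against sham, the 4-week Ch25h differences were 1.02 (A/J GMA-MS), 0.83 (A/J GMA-SS), 0.66 (B6 GMA-MS) and 0.45 (B6 GMA-SS), each with an SE of 0.21. At 16 weeks they were 0.39, 0.62, 0.41 and 0.29 in the same order, with an SE of 0.16. Within a beadchip, the fume array was above the sham array in 16 of 16 pairs at 4 weeks and in 15 of 16 at 16 weeks. The exception was B6 GMA-MS on beadchip 2 at 16 weeks, at 9.03 against 9.05. Both fumes of a strain and time share the 4 sham arrays, so these counts are not independent of each other.

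**Figure D2:**
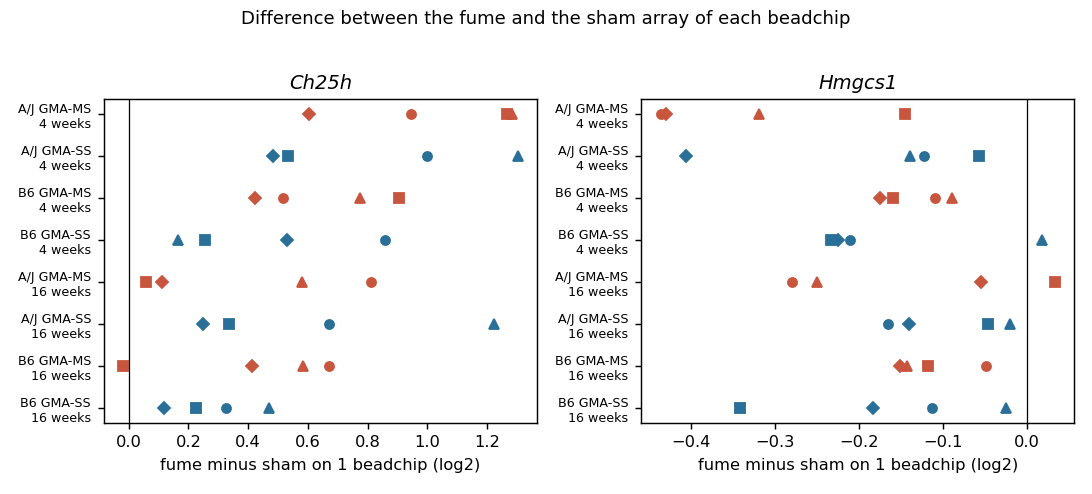
Fume minus sham difference in log2 level between the arrays of 1 beadchip, for Ch25h (left) and Hmgcs1 (right); each row is 1 fume, strain and time and each marker shape is a beadchip. Of 32 differences, 31 are above 0 for Ch25h and 30 are below 0 for Hmgcs1.

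The groups of Ch25h did not overlap in 3 of 4 comparisons at 4 weeks. In those comparisons 1.97% (A/J GMA-MS), 1.15% (A/J GMA-SS) and 1.88% (B6 GMA-MS) of all genes were higher without overlap, and in the B6 GMA-SS comparison 1.37%. At 16 weeks Ch25h overlapped in 4 of 4 comparisons, beside 2.26%, 0.896%, 3.62% and 1.17% of all genes higher without overlap. These values chose the gene, so nothing is read from the counts. The A/J GMA-MS value at 4 weeks, 1.02, was 0.80 (log2) without A/J GMA-MS array 2 and 1.17 without A/J sham array 2.

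Of 8 listed macrophage markers, 5 were measured, and Mmp12, a macrophage elastase, was higher than sham by 1.81 (A/J GMA-MS), 2.07 (A/J GMA-SS) and 1.12 (B6 GMA-SS) at 4 weeks and by 1.65 in A/J GMA-SS at 16 weeks, each on the log2 scale and called by limma. No other marker of the list was called against sham. At 4 weeks the mean log2 level of the 5 markers was 9.96 to 10.3 on A/J sham arrays, 10.6 to 11.0 with GMA-MS and 10.6 to 10.7 with GMA-SS. In B6 it was 9.63 to 9.75 on sham arrays, 9.68 to 10.0 with GMA-MS and 9.89 to 10.1 with GMA-SS. At 16 weeks the A/J ranges were 9.56 to 10.0, 9.92 to 10.4 and 10.2 to 10.4, and the B6 ranges 9.35 to 9.58, 9.45 to 9.60 and 9.39 to 9.47. These means include Mmp12, so its rise is part of them, and no mean without Mmp12 is given. The part of the markers in the Ch25h differences was not tested. Interferon can induce Ch25h in macrophages. Of 5 measured genes of the interferon response, 0 were called in any of the 8 comparisons, where 0% to 0.23% of all genes were called. The largest list median was 0.21 in B6 GMA-SS at 4 weeks. The part of interferon in the Ch25h differences was not tested.

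Ordered by group mean at 4 weeks, Ch25h was highest in A/J GMA-MS, then A/J GMA-SS, B6 GMA-MS, B6 GMA-SS, A/J sham and B6 sham. At 16 weeks A/J GMA-SS came before A/J GMA-MS and the rest of the order was the same. The ranges of every neighbouring pair in these orders overlapped. The fume effect of A/J minus that of B6 was 0.37 (SE 0.30) for GMA-MS and 0.38 (SE 0.30) for GMA-SS at 4 weeks, and -0.02 and 0.33 (SE 0.22) at 16 weeks. The effect at 16 weeks minus that at 4 weeks was -0.63 (SE 0.27) in A/J GMA-MS and -0.16 to -0.23 in the other 3 comparisons. These differences rest on the values that chose the gene and carry no test.

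Hmgcs1, the cytosolic HMG-CoA synthase that acts early in the mevalonate pathway, had a lower mean in all 8 fume groups than in sham. Its signal was among the brighter ones, at an intensity of 8385 to 24308. At 4 weeks the A/J sham lungs measured 14.18, 13.98, 14.10 and 14.08. The GMA-MS lungs of A/J measured 13.75, 13.83, 13.78 and 13.66, and the GMA-SS lungs 14.06, 13.92, 13.96 and 13.68. The A/J GMA-MS arrays all lay below sham, whereas the GMA-SS arrays overlapped it. In B6 the sham lungs measured 13.94, 14.01, 13.95 and 13.88. The GMA-MS lungs of B6 measured 13.83, 13.85, 13.86 and 13.70, and the GMA-SS lungs 13.73, 13.78, 13.97 and 13.65. The GMA-MS arrays were again below all sham arrays, by a narrow margin, and 1 GMA-SS array was not.

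At 16 weeks the Hmgcs1 sham levels were 13.83, 13.54, 13.66 and 13.60 in A/J and 13.58, 13.48, 13.37 and 13.60 in B6. The A/J fume arrays ranged from 13.41 to 13.57 with GMA-MS and from 13.46 to 13.66 with GMA-SS. The B6 fume arrays ranged from 13.23 to 13.53 and from 13.14 to 13.46. All 4 fume groups overlapped their sham group. As log2 fold changes the 4-week values were -0.33, -0.18, -0.13 and -0.16, and those of 16 weeks -0.14, -0.09, -0.11 and -0.17 (SE 0.08 each), in the order A/J GMA-MS, A/J GMA-SS, B6 GMA-MS and B6 GMA-SS. Within beadchips Hmgcs1 was lower with fume in 30 of 32 pairs. Groups did not overlap in 2 of 4 comparisons at 4 weeks (A/J and B6 GMA-MS). Of all genes 1.15%, 1.55%, 1.12% and 1.06% were lower without overlap at 4 weeks, and 2.04%, 1.96%, 2.84% and 1.88% at 16 weeks, in the same order of comparisons.

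**Figure D3:**
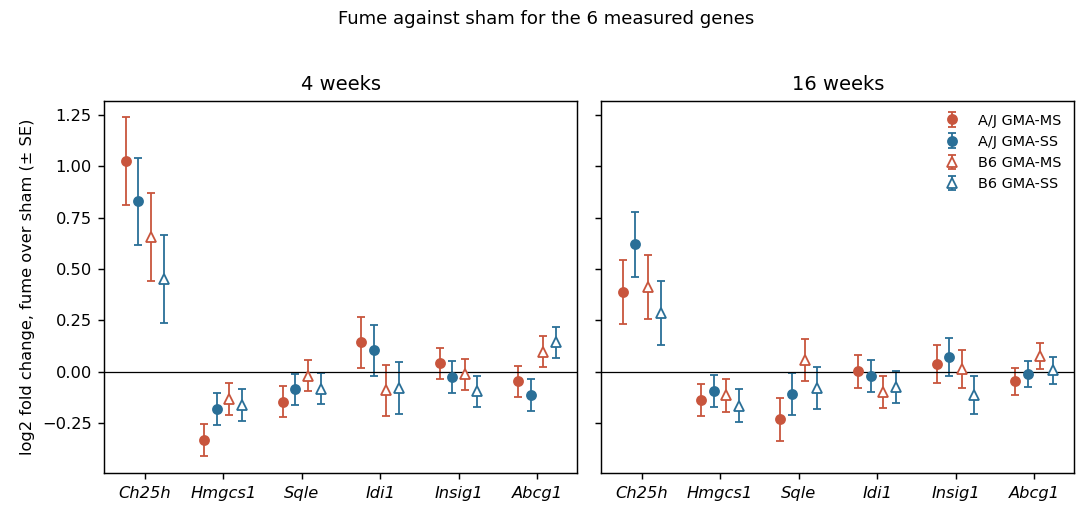
Log2 fold change of fume over sham (± SE from limma, 4 arrays per group) for the 6 measured genes, at 4 weeks (left) and 16 weeks (right); color marks the fume, filled circles A/J and open triangles B6. Ch25h lies above 0 in 8 of 8 comparisons and Hmgcs1 below 0 in 8 of 8, while Idi1, Insig1 and Abcg1 lie on both sides of 0.

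Sqle, the squalene epoxidase of sterol synthesis, was lower than sham in 7 of 8 comparisons and 24 of 32 pairs. Its log2 fold changes ran from -0.23 (SE 0.10, A/J GMA-MS at 16 weeks) to 0.06 (SE 0.10, B6 GMA-MS at 16 weeks). In the comparison with the lowest value, the sham arrays measured 11.48, 11.14, 11.48 and 11.07 and the GMA-MS arrays 11.04, 11.06, 10.99 and 11.16. The groups overlapped there and in the other 7 comparisons. The other probe of Sqle, which was dimmer and detected on 11 of the 24 arrays of 4 weeks and all 24 of 16 weeks, gave values of -0.13 to 0.11.

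Idi1, the isopentenyl-diphosphate isomerase of the mevalonate pathway, was close to the limit of detection, with detection on 18 of 24 arrays (4 weeks) and 11 of 24 (16 weeks). It was higher than sham in 3 comparisons and lower in 5, from -0.10 to 0.14. The A/J fume arrays at 4 weeks measured 8.13 to 8.51 with GMA-MS and 8.16 to 8.31 with GMA-SS against 7.78 to 8.37 in sham, which overlapped.

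Insig1, which encodes a protein that retains SREBP and is itself an SREBP target, was carried by 3 probes. The brightest was detected on 6 arrays of 4 weeks and all 24 of 16 weeks, and the dimmest on 0 of 48. Fume against sham values of the brightest probe were above 0 in 4 comparisons and below 0 in 4, from -0.11 to 0.07. At 16 weeks the A/J sham arrays measured 8.49, 8.47, 8.65 and 8.10, a spread wider than any of these differences.

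Abca1, the transporter that loads cholesterol onto lipid-poor apolipoproteins, was not measured above background. Its only probe was detected on 0 of 48 arrays, with intensities of 88.8 to 275 and a lowest detection p of 0.0122. No level or difference is given for it, and no gene was ranked for likeness to it.

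Abcg1, which exports cholesterol to lipoprotein particles and is abundant in alveolar macrophages, was bright on all 48 arrays (intensity 5690 to 14644). Fume against sham values were -0.11 to 0.14, above 0 in 4 comparisons and below 0 in 4. At 4 weeks they were -0.05 and -0.11 in A/J (GMA-MS and GMA-SS) and 0.10 and 0.14 in B6 (SE 0.08 each). The B6 fume array was above the sham array of its beadchip in 4 of 4 pairs with either fume. The ranges of B6 sham (12.90 to 13.05), GMA-MS (13.00 to 13.20) and GMA-SS (12.99 to 13.26) overlapped. The difference between strains in the GMA-SS effect at 4 weeks was -0.26 (SE 0.11).

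Between strains Abcg1 differed in sham lungs. At 4 weeks its levels were 13.42, 13.48, 13.34 and 13.57 in A/J sham and 13.00, 12.90, 12.93 and 13.05 in B6 sham. At 16 weeks they were 13.25, 13.22, 13.26 and 13.15 in A/J and 12.89, 12.80, 12.78 and 12.79 in B6. The strains did not overlap at either time, as was so for 9.62% (4 weeks) and 14.8% (16 weeks) of all genes with A/J the higher. The A/J level was 1.40-fold that of B6 at 4 weeks (log2 difference 0.48, SE 0.08, limma adjusted p = 5.00e-05) and 1.32-fold at 16 weeks (0.40, SE 0.06, adjusted p = 3.47e-05). Over all exposures the differences were 0.35 (adjusted p = 1.03e-06) and 0.36 (adjusted p = 3.19e-08). These calls held without any single array and under all other settings tried.

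**Figure D4:**
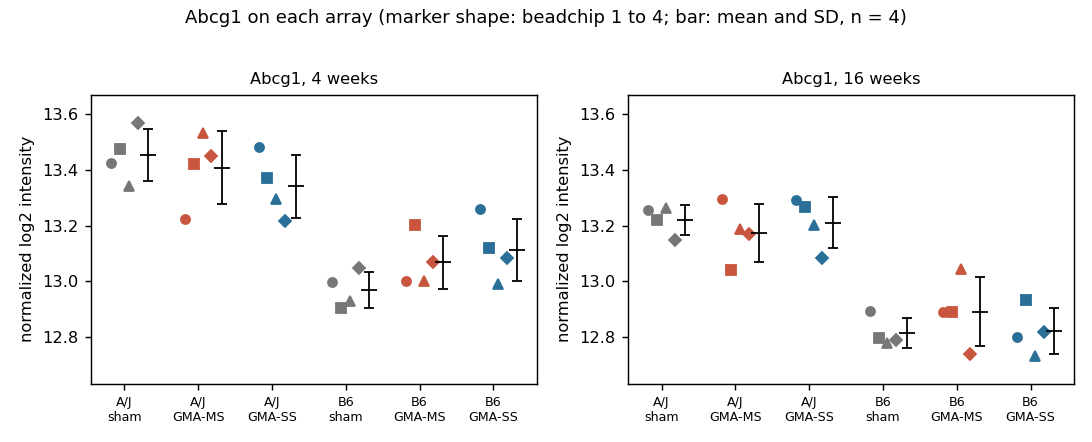
Normalized log2 intensity of Abcg1 on each array by strain and exposure at 4 weeks (left) and 16 weeks (right), with marker shapes for beadchips 1 to 4 and bars for the mean and SD of 4 arrays. The A/J sham arrays lie at 13.34 to 13.57 and the B6 sham arrays at 12.90 to 13.05 at 4 weeks.

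Strain differences were common, so this count is read against its background: 18.9% of all genes were called between sham lungs at 4 weeks and 27.7% at 16 weeks. Of the 6 measured genes, Abcg1 alone was called in sham, at both times. Ch25h was 0.10 higher in A/J sham at 4 weeks (SE 0.21, limma adjusted p = 0.83, 95% interval -0.34 to 0.55) and 0.17 higher at 16 weeks (SE 0.16, adjusted p = 0.48). Macrophage markers were also higher in A/J sham, with 3 of 5 called at each time and list means of 9.96 to 10.3 against 9.63 to 9.75 at 4 weeks. Their part in the Abcg1 and Ch25h differences was not tested. Whether a sequence difference between the strains under a probe changes its signal was not tested either.

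Averaged over the 3 exposures, 12 arrays of A/J were compared with 12 of B6, and 38.6% and 46.2% of all genes were called at 4 and 16 weeks. Of 12 tests of the measured genes 5 were called, a share between those of all genes: Abcg1 and Ch25h at both times and Hmgcs1 at 16 weeks. The averages include the fume arrays whose values against sham chose the genes, so these calls are no independent test. On the sham arrays alone the Ch25h differences were 0.10 and 0.17 and were not called. Ch25h was higher in A/J by 0.35 (SE 0.12, limma adjusted p = 0.0269) at 4 weeks and 0.27 (SE 0.09, adjusted p = 0.0168) at 16 weeks. The 4-week call was lost in the fits without A/J sham array 2 (0.31, adjusted p = 0.0531), B6 GMA-MS array 1 (0.32, adjusted p = 0.0502), B6 GMA-MS array 4 (0.32, adjusted p = 0.0514) or B6 GMA-SS array 3 (0.32, adjusted p = 0.0513). It was lost too with no detection filter (adjusted p = 0.0518) and with arrays scaled to a median in place of quantile normalization (adjusted p = 0.158), and median scaling also ended the 16-week call (adjusted p = 0.107). Hmgcs1 was higher in A/J by 0.17 (SE 0.05, adjusted p = 0.00465) at 16 weeks, with adjusted p = 0.0563 under median scaling, and by 0.07 (adjusted p = 0.243) at 4 weeks. With beadchip as a block Idi1 (0.15, adjusted p = 0.0299) and Insig1 (0.10, adjusted p = 0.00924) were called at 4 weeks as well, which made 7 calls. Both genes lay near background there. Insig1 was detected on 1, 3 and 1 A/J arrays and on 1, 0 and 0 B6 arrays (sham, GMA-MS and GMA-SS). It passed the detection filter only through A/J, so nothing is read from its call. The share of all genes called with the block is not given here.

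The fumes differed in none of the 24 tests of the measured genes within a strain and time by limma, with 0 also at an unadjusted p under 0.05 and 0 with beadchip as a block. Among all genes 0%, 0%, 0% and 0.0574% were called (A/J and B6 at 4 weeks, then A/J and B6 at 16 weeks). For Ch25h, GMA-SS minus GMA-MS was -0.20 (95% interval -0.64 to 0.25) in A/J and -0.20 (-0.65 to 0.24) in B6 at 4 weeks. At 16 weeks it was 0.23 (-0.09 to 0.55) in A/J and -0.13 (-0.45 to 0.20) in B6. Differences of up to 0.65 on the log2 scale between the fumes thus lie within these intervals. For Hmgcs1 at 4 weeks GMA-SS minus GMA-MS was 0.15 (-0.01 to 0.31) in A/J and -0.03 (-0.19 to 0.13) in B6.

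The rest of the pathway was taken from 5 lists with 58 genes, of which 50 were on the array and 39 were tested at each time, 33 of them outside the 7 genes. Against sham, 0 of these 33 were called by limma in any of the 8 comparisons, also with beadchip as a block. The shares of all genes called were 0.196%, 0.23%, 0.0806% and 0.0806% in the 4-week comparisons and 0.023%, 0.0344%, 0.149% and 0% in those of 16 weeks (A/J GMA-MS, A/J GMA-SS, B6 GMA-MS and B6 GMA-SS). The number at an unadjusted p under 0.05 was 2, 0, 0 and 0 of 33 in the same order, beside 7.39%, 5.00%, 3.86% and 3.61% of all genes. At 16 weeks it was 8, 2, 3 and 3, beside 8.43%, 5.90%, 9.45% and 4.09% of all genes. Their values ran from -0.39 for Lss, the lanosterol synthase, to 0.38 for Gpr183, a chemotactic receptor for an oxysterol made from 25-hydroxycholesterol, both in A/J GMA-MS at 16 weeks.

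Of the 15 tested enzymes of cholesterol synthesis, 4, 3, 7 and 8 had values above 0 at 4 weeks, with list medians of -0.04, -0.05, -0.01 and 0.00. At 16 weeks 1, 1, 5 and 3 had values above 0, with medians of -0.14, -0.07, -0.06 and -0.08. The median of all genes was between -0.02 and 0.01 in these comparisons. The 15 enzymes include Hmgcs1, Sqle and Idi1, which were chosen by these same comparisons, so nothing is read from the counts and medians. Of the 6 tested genes of SREBP control, Srebf2, the SREBP that drives sterol synthesis, had the largest value at 4 weeks, -0.32 in A/J GMA-MS. Among the 6 tested genes of LXR and efflux the largest was Pltp, a phospholipid transfer protein, at 0.25 in B6 GMA-MS at 16 weeks. Among the 5 of lysosomal uptake and esterification it was the fatty acid transporter Cd36, at 0.23 in A/J GMA-MS at 4 weeks.

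In sham lungs 10 of 39 genes (25.6%) were called at 4 weeks, 6 higher and 4 lower in A/J, and 14 of 39 (35.9%) at 16 weeks, 9 higher and 5 lower. Of all genes 18.9% and 27.7% were called in these comparisons, so strain differences were common beyond the pathway too. With beadchip as a block the counts were 15 and 15. The added genes were Pmvk, Fdps, Scap, Cyp27a1 and Cyp7b1 at 4 weeks and Npc2 at 16 weeks. The shares of 18.9% and 27.7% belong to the fit without the block. No share of all genes is given for the block fit, so its counts cannot be read against a background. The 10 genes of 4 weeks were all called at 16 weeks in the same direction. Msmo1, the C4-demethylating sterol monooxygenase, had the largest difference. Its 4-week sham levels were 10.51, 10.80, 10.25 and 10.57 in A/J and 12.16, 12.78, 12.18 and 12.64 in B6. A/J was 3.74-fold lower at 4 weeks (log2 difference -1.90, SE 0.16, limma adjusted p = 4.00e-09) and 3.82-fold lower at 16 weeks (-1.93, SE 0.16, adjusted p = 3.37e-09), on its single probe.

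**Figure D5:**
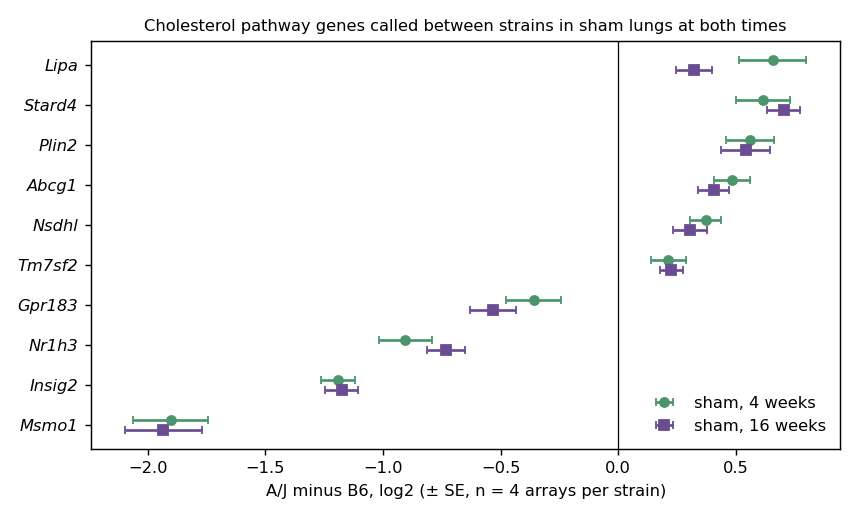
A/J minus B6 log2 difference (± SE from limma, 4 sham arrays per strain) of the 10 pathway genes called between sham lungs at both times, with circles for 4 weeks and squares for 16 weeks. Msmo1 lies at -1.90 and -1.93, Abcg1 at 0.48 and 0.40, and each gene keeps its side of 0 at both times.

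Insig2, the companion of Insig1 in SREBP retention, was lower in A/J by 1.19 at 4 weeks (sham levels 9.69, 9.81, 9.76 and 9.69 against 10.93, 10.99, 10.83 and 10.96, limma adjusted p = 1.06e-11). Its value at 16 weeks was -1.18 (adjusted p = 9.45e-12). Its other probe gave -0.14 and -0.07 and was not called, so the probes of Insig2 disagreed. Nr1h3, which encodes LXR alpha, was -0.91 (adjusted p = 1.90e-06) and -0.73 (adjusted p = 2.18e-07), and its other probe, tested at 16 weeks, gave -0.08. Gpr183 was -0.36 (adjusted p = 0.0344) and -0.53 (adjusted p = 0.000193). The 4-week call of Gpr183 was lost without any 1 of A/J sham arrays 1, 2 and 4 or B6 sham arrays 1, 2 and 4, where its value was -0.26 to -0.37.

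The genes higher in A/J sham included Stard4, a sterol carrier induced by SREBP, by 0.62 at 4 weeks and 0.70 at 16 weeks (limma adjusted p = 0.000424 and 5.18e-08). Lipa, the lysosomal acid lipase that frees cholesterol from its esters, was higher by 0.66 and 0.32 (adjusted p = 0.00186 and 0.0025). Plin2, which coats lipid droplets, was higher by 0.56 and 0.54 (adjusted p = 0.000324 and 0.000319). Among synthesis enzymes, Nsdhl was higher by 0.37 and 0.31 (adjusted p = 0.000181 and 0.00295), with values above 0 on all 3 of its probes. With every probe tested, its other probes were not called at 4 weeks (0.35 and 0.23, limma adjusted p = 0.168 and 0.345). Both were called at 16 weeks (0.31 and 0.26, adjusted p = 0.00508 and 0.0385). Tm7sf2, a sterol reductase, was higher by 0.21 and 0.22 (adjusted p = 0.049 and 0.00119), a call that held at 4 weeks in 6 of 24 fits with 1 array left out and whose 16-week direction turned under median scaling (-0.54). The 4-week call of Tm7sf2 was also lost under median scaling, with the deposited values, with no detection filter and with only the groups compared, where adjusted p was 0.0529 to 1.00 and the value 0.08 to 0.21. Called at 16 weeks but not at 4 weeks were Fdps (0.32), Dhcr7 (0.16) and Scarb1 (0.35), higher in A/J, and Hsd17b7 (-0.41), lower. With beadchip as a block Fdps was called at 4 weeks as well (0.29, limma adjusted p = 0.00474, against 0.169 without the block). The other probe of Scarb1 gave 0.11 at 16 weeks and was not called, so its probes had the same direction but differed in size and call.

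Likeness of pattern was measured by Pearson's r across the 24 arrays of a time point after subtracting the strain mean, averaged over both times, among 8496 other genes. These arrays share beadchips and exposure groups, and r is a description. The genes most like Ch25h were Ccl6 (0.78), Clec4n (0.74), Ctsk (0.73), Mmp12 (0.72) and Lcn2 (0.71). All are expressed by myeloid cells, Lcn2 by lung epithelium too. Those most like Hmgcs1 were Tnfrsf12a (0.69), Cyp51 (0.68), Pik3r3 (0.67), Sqle (0.67) and Adcy8 (0.57). Cyp51 and Sqle are both enzymes of sterol synthesis. The r between Ch25h and Hmgcs1 was -0.49. Subtracting the strain mean leaves the fume differences in these values. Those differences chose both genes, so the lists of most alike genes largely follow that choice and nothing is read from their make-up. In Ch25h and Hmgcs1 the differences had opposite directions, so the sign of the r between them is no separate result.

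Within groups the relation was different. After subtracting group means, r between Ch25h and Hmgcs1 was 0.14 at 4 weeks and -0.27 at 16 weeks. Between Hmgcs1 and Sqle it was 0.66 and 0.58. Between Ch25h and Idi1 it was 0.62 at 4 weeks and -0.22 at 16 weeks. Hmgcs1 and Sqle were not alone in keeping the sign of their relation. It was 0.56 and 0.44 between Idi1 and Abcg1 and 0.50 and 0.41 between Sqle and Insig1. With beadchip means subtracted too, r was 0.48 and 0.54 for Hmgcs1 and Sqle and 0.57 and 0.65 for Idi1 and Abcg1.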

How the data were processed

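Lung RNA of 48 mice was hybridized to Illumina MouseRef-8 beadchips. The authors deposited mean bead intensity values per probe, exported without normalization. The deposited detection p-values compare each probe with the negative controls of its array. The deposited log2 values were made by the authors in lumi (force-positive background correction, variance stabilization, robust spline normalization per time point) and served as an alternative. Deposited bead numbers were used only as a measure of precision, since the number of beads limits it.

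The neqc function of limma 3.58.1 (R 4.3.3) was applied to the intensities of each time point, with an offset of 16. It corrects background with controls estimated from detection p-values, quantile normalizes and takes log2. Probes with a detection p under 0.01 on at least 4 of 24 arrays were tested. A gene was represented by its probe of highest mean intensity over 48 arrays. Of 24613 probes 20984 had 1 symbol, 1 had several and 3628 had none. Symbols were updated through Entrez IDs. The 6 groups of a time point were fitted with lmFit and eBayes, and p-values were Benjamini-Hochberg adjusted over all genes at 0.05. Differences between times used all 48 arrays normalized together. Names of genes follow a rule: the 7 members, pathway genes called in a comparison (at most 6 of a list), the largest value of a list with no call, and the 5 most alike genes. Tm7sf2, Fdps, Dhcr7, Hsd17b7 and Scarb1 complete the calls in sham lungs. The members and lists were chosen with earlier results of these data known.

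Replicate numbers follow the beadchip, per the labels. Deviations from group means correlated at 0.258 to 0.434 within the 4 beadchips at 4 weeks and 0.0484 to 0.223 at 16 weeks, against -0.152 and -0.0901 between beadchips, and the fit with beadchip as a block is given where it changed a call. The replicates are lungs of separate mice as far as the labels tell. The p-values set a difference against the spread between arrays within groups, pooled over the 6 groups and moderated across genes by eBayes. Without the block they take no account of the beadchip. Alternatives were no background correction, median scaling, the deposited values, no or a stricter detection filter, every probe tested, only the groups compared, an intensity trend with robust variance (statmod 1.5.0), the block and each array left out. The code was tested on simulated data. Figures used matplotlib 3.10.9 in Python 3.11.15.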

Additional observations from a re-analysis of the deposited data

Results flagged for a closer look

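Among 72 sets of 4 arrays (6 genes in 12 groups), 4 held an array far from the other 3 by Dixon's criterion, which chance gives in about 1 of 20 sets. Ch25h was 10.80 on A/J GMA-MS array 2 at 4 weeks, with the next array at 10.00. Without that array the log2 fold change of Ch25h against sham was 0.80 in place of 1.02. Hmgcs1 was 13.41 on A/J GMA-MS array 3 at 16 weeks, with the next array at 13.55. Idi1 was 7.49 on B6 GMA-SS array 3 at 16 weeks, with the next at 7.75. Abcg1 was 12.89 on B6 sham array 1 at 16 weeks, with the next at 12.80.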

How the results depend on the processing

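Fume against sham calls of the 7 genes describe the values that chose them and are no test. Counted over these or over all pathway genes, at 4 weeks there was 1 call, for Ch25h. The count was 0 under median scaling, with the deposited values, with no detection filter, with every probe tested and with only the groups compared in the fit, and 3 with the replicate block. It ranged from 0 to 1 with 1 array left out. Some of these settings bring a smaller number of arrays or a larger number of tests, and the cause of the changed counts was not tested. Ch25h stayed above sham in the 8 comparisons under each of 9 other settings and with each array left out (0.20 to 1.17, log2) and Hmgcs1 below it (-0.42 to -0.04). Strain counts in sham lungs were 8 to 11 of 39 at 4 weeks and 13 to 15 at 16 weeks with 1 array left out, and 8 to 15 and 11 to 15 under the other settings. Tm7sf2 at 16 weeks reversed under median scaling, at -0.54 between A/J and B6 sham lungs, and Nsdhl lost its call there (0.23, limma adjusted p = 0.0808). Gpr183 lost its 4-week call under median scaling (adjusted p = 0.476), with no filter (0.0567) and with only the groups compared (0.108). Under median scaling the median log2 fold change of all genes was -0.12 to 0.11 over the 16-week comparisons, against -0.01 to 0.02 in the main fit. GMA-SS against GMA-MS gave 0 calls among pathway genes in every setting run. Idi1, Insig1 and the dimmer Sqle probe lay near background, which limits what their values can show.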
